A study of Homo sapiens with 8 samples.

Results

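Acquired resistance of A204 cells to 3 tyrosine kinase inhibitors (TKIs) was examined by setting 3 resistant sublines against untreated parental cells, over all 48107 probes of the array. A204 is an established human line from a malignant rhabdoid tumor and has lost SMARCB1, which belongs to the chromatin remodeler SWI/SNF. The resistant arrays were DasR, PazR and SunR, the sublines resistant to dasatinib, pazopanib and sunitinib, with 1 array each. Per the study's methods, each subline was raised by stepwise increases of its drug and kept in that drug at 5 µM. The untreated arrays were parental cells labelled as without drug, replicates 1 and 2. These 5 of the 8 arrays of the series make up the comparison. The other 3 came from parental cells treated with 1 of the drugs at the same dose, and their values are given beside the results because resistance and the presence of drug cannot be told apart between the sublines and untreated cells. The labels name no drug for the untreated arrays, and the study describes the parental control of this dataset as DMSO. Every array carried all probes, and a change was sought that lay on the same side of both untreated arrays in all 3 sublines.

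Dasatinib, pazopanib and sunitinib are small molecules that block the ATP site of tyrosine kinases, and their shared targets include the platelet-derived growth factor receptor PDGFRA. Receptor tyrosine kinases pass growth signals to the AKT and ERK pathways. Cells kept in a TKI can become resistant by altering the target, by relying on another receptor or pathway, or by changing cell state, and rhabdoid cells, which lack a chromatin remodeler, show mixed neural and mesenchymal gene expression. This is background and was not measured here.

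Promoters are shown for 6 genes with large changes, so that their sequence can be set beside their signals. PPP2R2C, ATP1B1 and AKR1C4 were higher in every subline, and PDGFRA, SCRG1 and RGS17 were lower. Each sequence holds the 250 bases before the transcription start in RefSeq (GRCh38.p14), read 5′ to 3′ on the strand of the gene. The windows lie at chr4:6563800-6564049, minus strand for PPP2R2C, chr1:169106440-169106689, plus strand for ATP1B1, chr10:5196587-5196836, plus strand for AKR1C4, chr4:54229043-54229292, plus strand for PDGFRA, chr4:173399117-173399366, minus strand for SCRG1 and chr6:153131283-153131532, minus strand for RGS17. Capitals mark matches on either strand. The motifs searched were the TATA box with the letters TATAAA, the CCAAT box, the GC box that Sp1 binds, written GGGCGG, and the AP-1 sequence, written TGANTCA with N for any base. The E-box was searched as CACGTG, and the core of the antioxidant response element as TGACNNNGC. Overlapping matches run together.
PPP2R2C: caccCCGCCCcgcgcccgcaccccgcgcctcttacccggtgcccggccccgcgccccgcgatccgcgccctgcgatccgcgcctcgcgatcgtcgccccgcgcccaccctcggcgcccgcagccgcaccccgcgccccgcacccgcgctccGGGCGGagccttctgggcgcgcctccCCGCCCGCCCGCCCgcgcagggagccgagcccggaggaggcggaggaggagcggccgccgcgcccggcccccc
ATP1B1: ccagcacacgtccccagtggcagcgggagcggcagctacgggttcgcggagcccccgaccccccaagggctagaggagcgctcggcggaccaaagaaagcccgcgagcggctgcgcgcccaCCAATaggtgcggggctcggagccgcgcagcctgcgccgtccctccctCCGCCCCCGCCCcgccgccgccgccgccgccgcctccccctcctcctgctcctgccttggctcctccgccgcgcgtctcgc
AKR1C4: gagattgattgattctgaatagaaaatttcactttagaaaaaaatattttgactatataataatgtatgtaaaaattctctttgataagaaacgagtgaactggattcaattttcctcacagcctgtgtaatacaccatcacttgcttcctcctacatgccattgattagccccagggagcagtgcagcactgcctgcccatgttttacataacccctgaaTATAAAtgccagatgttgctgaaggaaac
PDGFRA: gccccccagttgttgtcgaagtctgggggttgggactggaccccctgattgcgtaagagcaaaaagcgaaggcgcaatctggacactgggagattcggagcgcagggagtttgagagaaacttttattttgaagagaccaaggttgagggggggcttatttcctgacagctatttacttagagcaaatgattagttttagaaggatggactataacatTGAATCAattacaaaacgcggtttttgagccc
SCRG1: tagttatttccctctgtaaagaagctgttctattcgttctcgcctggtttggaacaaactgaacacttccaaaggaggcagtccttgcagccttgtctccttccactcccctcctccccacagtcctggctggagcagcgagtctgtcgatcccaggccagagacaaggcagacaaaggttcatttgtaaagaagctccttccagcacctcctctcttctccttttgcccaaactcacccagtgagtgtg
RGS17: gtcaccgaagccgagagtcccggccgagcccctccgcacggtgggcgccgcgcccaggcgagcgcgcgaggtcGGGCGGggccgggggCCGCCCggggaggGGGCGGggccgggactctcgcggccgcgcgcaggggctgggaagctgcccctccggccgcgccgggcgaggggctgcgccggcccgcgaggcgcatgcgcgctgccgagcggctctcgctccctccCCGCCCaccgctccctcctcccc

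The GC box matched 5 times before PPP2R2C and 4 times before RGS17, which changed in opposite directions. ATP1B1 had 2 GC boxes and 1 CCAAT box, AKR1C4 had 1 TATA box and PDGFRA had 1 AP-1 match. SCRG1 had no match. GC content was 86% for PPP2R2C, 84% for RGS17, 77.6% for ATP1B1, 51.6% for SCRG1, 46.8% for PDGFRA and 36.8% for AKR1C4. A gene is named called where a probe had a limma adjusted p under 0.05 and the sublines did not overlap the untreated arrays, which held for 0.158% of all probes on the higher and 0.118% on the lower side. Promoters were matched for 48 of 60 genes called higher, 34 of 42 called lower and 15034 of 20039 measured genes. A GC box was found in 66.7% of the promoters of genes called higher, 47.1% of those called lower and 56.1% of those of all measured genes. The TATA box was found in 12.5%, 11.8% and 9.12% of these sets, CCAAT in 25%, 23.5% and 34.7%, the AP-1 sequence in 6.25%, 5.88% and 5.12%, the E-box in 8.33%, 5.88% and 7.82%, and the antioxidant response core in 14.6%, 11.8% and 11.7%. The median GC content was 69.6% in genes called higher, 58.6% in genes called lower and 62.4% in all measured genes. These shares describe the windows and were not tested.

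Values are log2 intensities after quantile normalization by the authors, so every array had a median of 6.67. Precision is limited by how few arrays there are. Exactly 1 gene symbol was found for 30113 probes, covering 20039 genes, and 17986 probes had none. No label says that arrays of a group came from separate cultures, and the p-values measure the spread between arrays, which here includes differences between drugs. The untreated arrays correlated at 0.983 across probes, and 614 probes (1.28%) differed by over 1 between them. Untreated replicate 2 was high in ribosomal RNA signal and replicate 1 was low. The 3 ribosomal RNA probes read 8.61 to 10.16 in the sublines, 10.97 to 12.55 in treated parental cells, 8.35 to 9.52 in untreated replicate 1 and 10.69 to 11.84 in untreated replicate 2. The part of this difference in the results was not tested directly, and the number of calls is therefore also given without each untreated array, with the adjusted p of a drawn gene where leaving one out ended its call. No probe of leukocyte, endothelial or epithelial markers was called. By the brightest probe of a gene, 11 of 18 leukocyte, 7 of 10 endothelial and all 9 epithelial markers stayed at or below 6.92 on these arrays, the highest SMARCB1 reading among them, and their summed levels were 126.04 to 126.97, 65.62 to 67.1 and 58.67 to 58.96 in the sublines, against 125.63 to 126.55, 65.89 to 66.43 and 59 to 59.25 in untreated cells. In a wider list of 21 epithelial genes 3 lay above and 1 below both untreated arrays in every subline, none of them called. Over all measured genes 11.9% lay above and 13% below by the brightest probe, so these counts do not set the list apart. MUC1 among them read 10.43, 11.17 and 10.65 in DasR, PazR and SunR, against 10.26 and 9.94 (adjusted p = 0.665), and DSP read 8.7, 8.41 and 7.7, against 7.19 and 7.24 (adjusted p = 0.125). Their part in the results was not tested.

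PDGFRA, a shared target of the 3 TKIs, was lower in every subline by both of its probes. Its brighter probe (ILMN_2086470) read 9.63 in DasR, 10.45 in PazR and 9.87 in SunR, against 12.5 and 12.08 in untreated replicates 1 and 2. The gap between the highest subline and the lowest untreated array was 1.63 in size, and the mean fell by 2.31 (SE 0.27, adjusted p = 0.00204), a 4.96-fold drop. The second probe (ILMN_1681949) read 8.1, 8.84 and 8.29 in DasR, PazR and SunR, against 11.11 and 11.08 in untreated cells, and fell by 2.68 (SE 0.32, adjusted p = 0.00233), a 6.42-fold drop. PazR kept the highest PDGFRA signal of the sublines by both probes. Parental cells in TKI read 12.6, 12.58 and 12.22 by the brighter probe, so the low signal was seen in the sublines and not in treated parental cells. Without untreated replicate 2 the brighter probe stayed below the threshold (adjusted p = 0.0255), and the second did not (adjusted p = 0.0568).

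The other receptors examined showed no call. FGFR1, a fibroblast growth factor receptor, read 7.89, 7.88 and 7.72 in DasR, PazR and SunR, against 7.75 and 7.49 in untreated cells, and these values overlap. Its difference of 0.21 had an SE of 0.16 (adjusted p = 0.818). KIT read 6.48 to 6.6 in the sublines by the probe drawn (ILMN_2229379), against 6.6 in both untreated arrays. PDGFRB read 6.31 to 6.39 in the sublines and 6.35 and 6.45 in untreated cells, and CSF1R read 6.57 to 6.7 in the sublines and 6.54 and 6.45 in untreated cells. The brightest EGFR probe read 6.73 to 6.87 in the sublines, against 6.65 and 6.74. Another EGFR probe (ILMN_1798975) stood out in SunR alone, at 7.46, against 6.49 and 6.51 in untreated cells and 6.5 and 6.47 in DasR and PazR. SMARCB1, which A204 cells have lost, read 6.64 to 6.85 in the sublines and 6.77 to 6.92 in untreated cells by its 2 probes, and signals of this height are no evidence of expression. KIT, PDGFRB, CSF1R and most EGFR probes lay in or below this range.

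**Figure D1:**
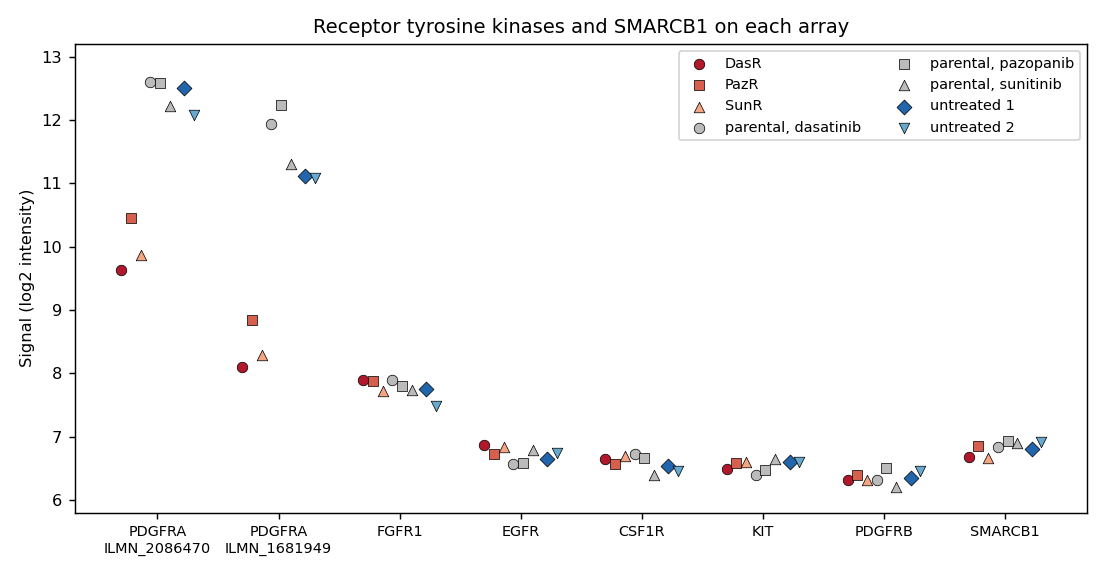
Signal (log2 intensity) of receptor tyrosine kinases and SMARCB1 on each of the 8 arrays, by the brightest probe of each gene and by both PDGFRA probes. Both PDGFRA probes were lower in DasR, PazR and SunR than in all 5 parental arrays, while the other receptors lay close together.

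Across the array, 76 probes were higher and 57 lower in the sublines with a limma adjusted p under 0.05, which is 0.158% and 0.118% of the 48107 probes. In all 133 the 3 sublines lay on the same side of both untreated arrays. Of them 120 had a gene symbol, for 60 genes that rose and 42 that fell, and 17 genes were called by at least 2 probes. Without adjustment 3494 probes had p under 0.05, 1769 higher and 1725 lower. Separation of the groups alone was frequent, since 5337 probes (11.1%) lay above and 5944 (12.4%) below both untreated arrays in all 3 sublines. A stricter reading, with every subline over 1 beyond both untreated arrays, left 39 probes higher (0.0811%) and 38 lower (0.079%). The called changes ran between a rise of 4.1 and a fall of 2.97, and their median size was 1.34, against 0.08 over all probes. The largest rise belonged to a probe without a gene symbol (ILMN_2407824), which read 9.89, 11.6 and 12.02 in DasR, PazR and SunR, against 7.3 and 6.85 in untreated cells.

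**Figure D2:**
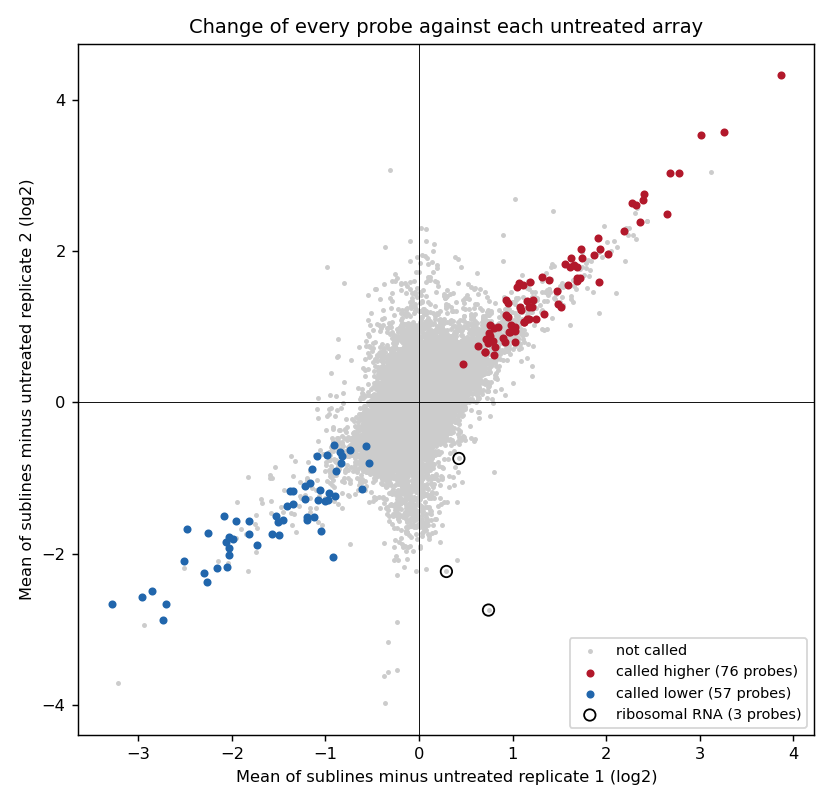
Change of every probe as the mean of the 3 sublines minus untreated replicate 1 (horizontal axis, log2) and minus untreated replicate 2 (vertical axis, log2). The 76 probes called higher and 57 called lower lie along the diagonal, as the rule on both arrays requires, and the 3 ribosomal RNA probes lie above replicate 1 and below replicate 2.

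Many of the called genes were at the background on one side. Of the 76 probes called higher, 42 had an untreated mean at or below 6.92, and of the 57 called lower, 32 had a subline mean there. The size of such changes may be understated, which was not tested. Dependence on single arrays was largest for untreated replicate 2. Without it 35 probes were called, 34 of them among the 133, and without replicate 1 there were 446. A term for array set, with untreated replicate 1 beside the sublines and replicate 2 beside treated parental cells, was also fitted. It turned each change into the subline mean minus untreated replicate 1 alone. It is therefore no check separate from leaving out replicate 2. Between 98 and 262 were called when any subline or treated parental array was left out, 262 without DasR. Leaving out each of the 8 arrays in turn, 33 of the 133 probes (12 higher, 21 lower, 24 named genes) were called every time. These genes were PPP2R2C, STAMBPL1, LRATD2, SOX4, HSPA12A, LAMB1, NUDT10, FAM89A and LYN among those that rose, and SCRG1, RGS17, ASB9, PLS1, RNF128, PDGFRA, ZNF22, RHOJ, SOSTDC1, C3orf70, TMOD1, NEB, HMCN1, LIN28B and GRP among those that fell.

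Some of the widest gaps belonged to metabolic enzymes. AKR1C4, an aldo-keto reductase of steroid and bile acid metabolism, read 10.94, 11.29 and 12.45 in DasR, PazR and SunR, against 8.55 and 8.03 in untreated cells. Every subline was at least 2.39 above both, and the mean rose by 3.27 (SE 0.39, adjusted p = 0.00238), or 9.67-fold. Without untreated replicate 2 its call was lost (adjusted p = 0.0985). AKR1C genes are near-identical copies, so the signal of a probe may include other members, and a second AKR1C4 probe (ILMN_1668880) stayed at 6.32 to 6.53 in the sublines. AKR1C3 read 6.76, 9.67 and 11.65 and AKR1C2 (ILMN_2412336) read 6.73, 8.71 and 11.06 in DasR, PazR and SunR, against 6.92 and 6.97 for AKR1C3 and 6.51 and 6.67 for AKR1C2 in untreated cells. These paralogs were thus high in PazR and SunR but near the untreated level in DasR, and neither was called (adjusted p = 0.601 and 0.571).

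HPD, which breaks down 4-hydroxyphenylpyruvate in tyrosine catabolism, read 12.79, 12.24 and 12.13 in DasR, PazR and SunR, 11.63, 11.62 and 10.17 in parental cells in dasatinib, pazopanib and sunitinib, and 9.74 and 9.9 in untreated cells. It rose by 2.56 (SE 0.39, adjusted p = 0.0123). CTH, the cystathionine gamma-lyase that makes cysteine, read 10.73, 10.07 and 10.14 in the sublines, 9.65, 9.79 and 9.31 in treated parental cells and 8.58 and 8.29 in untreated cells. It rose by 1.88 (SE 0.28, adjusted p = 0.0111). S100P, a calcium-binding protein, read 10.22, 10.71 and 11.41 in the sublines, 9.15, 9.22 and 10.95 in treated parental cells and 8 and 7.75 in untreated cells, with a rise of 2.91 (SE 0.48, adjusted p = 0.0233). For these 3 genes the treated parental arrays lay between untreated cells and the sublines or, for S100P in sunitinib, among the sublines. The differences between treated parental and untreated cells were 1.32, 1.15 and 1.9 for HPD, CTH and S100P, and none was called (adjusted p = 0.191, 0.154 and 0.157). That comparison called 2 probes higher (0.00416%) and 0 lower. Leaving out untreated replicate 2 ended the call of each (adjusted p = 0.192 for HPD, 0.255 for CTH and 0.449 for S100P). HPD and S100P also lost it without untreated replicate 1 (adjusted p = 0.0503 and 0.0574), and S100P without PazR (adjusted p = 0.0561).

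PPP2R2C, a regulatory subunit of protein phosphatase 2A, had the smallest p-value of the named genes. It read 9.6, 9.36 and 9.75 in DasR, PazR and SunR, 6.8 to 6.98 in treated parental cells and 7.17 and 6.9 in untreated cells. It rose by 2.53 (SE 0.18, adjusted p = 0.000156), and its second called probe rose by 1.82, while another pair of PPP2R2C probes stayed between 6.5 and 6.77 on the 5 arrays. ATP1B1, the beta subunit of the sodium-potassium pump, read 8.71, 10.27 and 10.76 in DasR, PazR and SunR, against 6.65 and 6.34 in untreated cells, and rose by 3.42 (SE 0.42, adjusted p = 0.00296), or 10.7-fold. DasR and SunR differed by 2.05 here, the widest spread of the sublines among the 24 genes drawn. COXFA4L3, a small mitochondrial protein related to a cytochrome c oxidase subunit, was already bright in untreated cells (10.39 and 10.04) and read 12.23, 13.4 and 13.59 in the sublines, a rise of 2.85 (adjusted p = 0.00354). Without untreated replicate 2 the calls of ATP1B1 and COXFA4L3 were lost (adjusted p = 0.118 and 0.116).

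Of the other genes drawn, CYFIP2, of the WAVE complex that drives actin branching, read 9.09, 9.06 and 10.05 in the sublines, against 7.21 and 7.14, a rise of 2.22 (adjusted p = 0.00416) whose call was lost without untreated replicate 2 (adjusted p = 0.13). STAMBPL1, a deubiquitinase, read 8.99, 8.52 and 9.03, against 6.83 and 6.89 in untreated cells, and rose by 1.99 (SE 0.18, adjusted p = 0.000433). The transcription factor SOX4 read 8.87, 8.92 and 9.19 in the sublines, against 7.37 and 7.09, and rose by 1.77 (SE 0.18, adjusted p = 0.000804). LRATD2, whose role is less known, read 8.34, 9.16 and 8.65, against 6.8 and 6.54, a rise of 2.05. The homeobox gene MSX1 read 11.47, 11.85 and 13.38, against 9.96 and 9.6, and rose by 2.45 (SE 0.45, adjusted p = 0.0432). Of the genes drawn, MSX1 lost its call most often, since leaving out any of 6 arrays ended it.

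**Figure D3:**
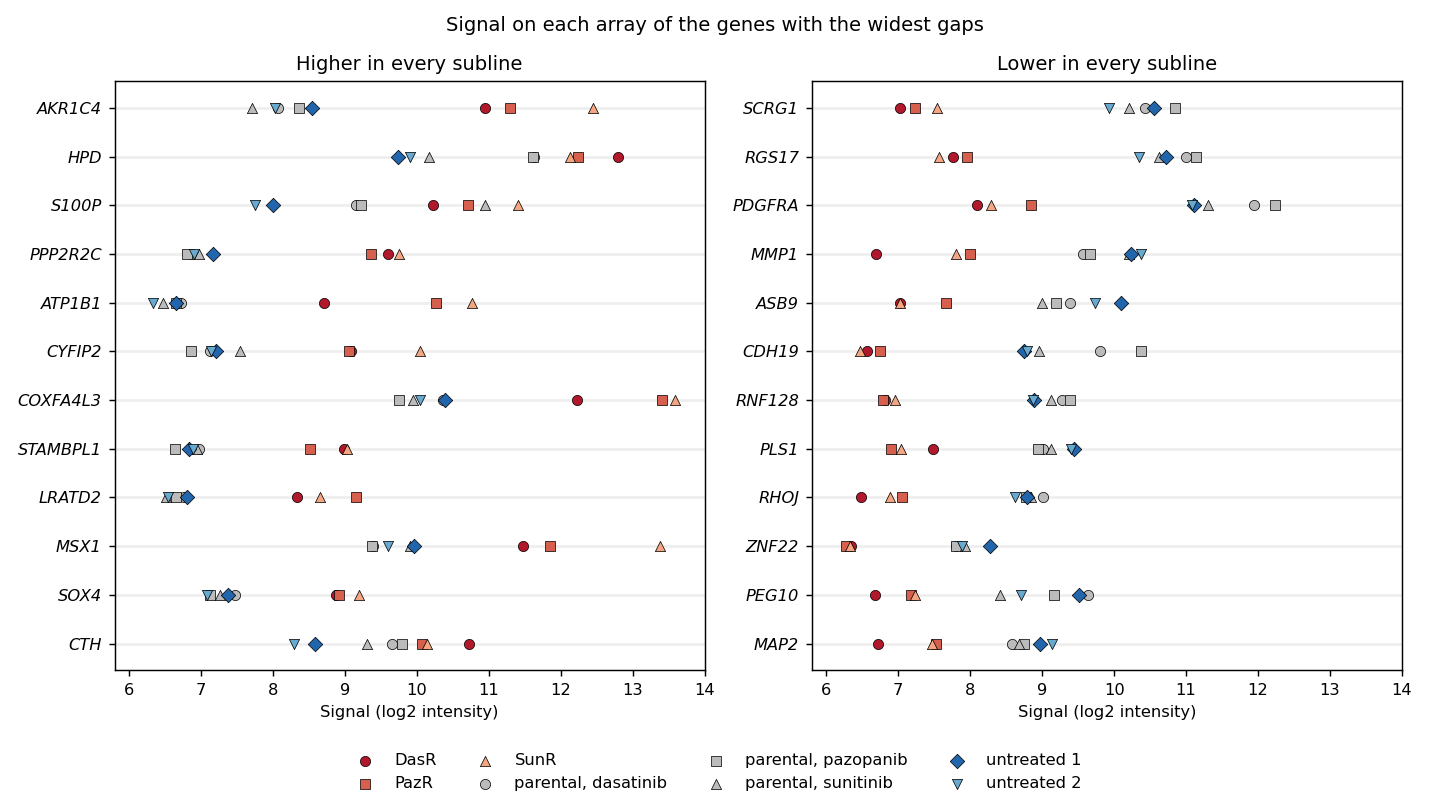
Signal (log2 intensity) on each of the 8 arrays for the 12 named genes with the widest gap above (left) and below (right) both untreated arrays, each by its called probe of widest gap. HPD, S100P and CTH show parental cells in TKI between the untreated arrays and the sublines or among the sublines, and most of the others show treated parental cells near the untreated arrays.

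SCRG1 and RGS17 had the widest gaps among the genes that fell. SCRG1, which encodes a small secreted protein of cartilage and neural cells, read 7.02, 7.24 and 7.54 in DasR, PazR and SunR, against 10.55 and 9.93 in untreated cells, and fell by 2.97 (SE 0.29, adjusted p = 0.000449), or 7.85-fold. RGS17, which speeds the shut-off of inhibitory G proteins, read 7.76, 7.96 and 7.57, against 10.72 and 10.34, and fell by 2.77 (SE 0.26, adjusted p = 0.000433). Parental cells in TKI read 10.21 to 10.85 for SCRG1 and 10.63 to 11.14 for RGS17, and none lay below the lower untreated array. MMP1, an interstitial collagenase, read 6.69 in DasR, 8 in PazR and 7.81 in SunR, against 10.24 and 10.38, and fell by 2.81 (SE 0.36, adjusted p = 0.00354). The MMP1 call was lost without untreated replicate 2 (adjusted p = 0.106).

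ASB9, a substrate adaptor of a cullin ligase, read 7.02, 7.66 and 7.02 in the sublines, against 10.09 and 9.73 in untreated cells, and fell by 2.67 (SE 0.25, adjusted p = 0.000433). RNF128, a membrane-bound ubiquitin ligase, read 6.81, 6.79 and 6.95, against 8.88 and 8.87, and fell by 2.03 (SE 0.18, adjusted p = 0.000433). The other RNF128 probes stayed between 6.51 and 6.95 on the 5 arrays and were not called. ZNF22, a zinc finger protein, ended at 6.35, 6.27 and 6.33 in the sublines, against 8.27 and 7.88, and fell by 1.76 (SE 0.14, adjusted p = 0.000249). A second ZNF22 probe fell by 1.39.

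The actin-bundling protein PLS1 read 7.48, 6.9 and 7.04 in the sublines, against 9.44 and 9.4, and fell by 2.28 (SE 0.22, adjusted p = 0.000433). RHOJ read 6.49, 7.05 and 6.88, against 8.79 and 8.62, and fell by 1.9 by each of its 2 called probes. CDH19, a cadherin of Schwann cell precursors, read 6.56, 6.75 and 6.47, against 8.75 and 8.79, and fell by 2.18 (SE 0.32, adjusted p = 0.0103). Treated parental cells were above untreated cells for CDH19, at 9.81, 10.37 and 8.96, a difference that was not called (adjusted p = 0.243). MAP2, a microtubule protein of neuronal dendrites, read 6.72, 7.53 and 7.47, against 8.97 and 9.13, and it fell by 1.81 (adjusted p = 0.00542). PEG10, an imprinted gene derived from a retrotransposon, read 6.68, 7.18 and 7.23, against 9.51 and 8.71, and fell by 2.08 (SE 0.34, adjusted p = 0.0203). SGCE, its neighbor on chromosome 7, read 7.31, 9.63 and 10.06 in DasR, PazR and SunR, against 11.51 and 11.19, and was not called (-2.35, SE 0.58, adjusted p = 0.218). Without untreated replicate 2 the calls of CDH19, MAP2 and PEG10 were lost (adjusted p = 0.194, 0.13 and 0.0816), and that of PEG10 also without replicate 1 (adjusted p = 0.0888).

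The 102 called genes were sorted by their known roles after their values had been seen, so the sizes of the groups are a description. Apart from the 24 genes named above, none had a probe that was called with each of the 8 arrays left out in turn. Of 12 genes of the matrix and cell adhesion, 6 rose and 6 fell. Those that rose were LAMB1 (1.64 and 1.5 by its probes), a laminin chain of basement membranes, ITGA6 (1.14), the alpha subunit of laminin-binding integrins, COL12A1 (1.13), MATN2 (1.48), the metalloproteinase inhibitor TIMP2 (1.76) and the sulfatase SULF2 (1.39). TIMP2 stood between the groups in treated parental cells, at 11.09 to 11.42, against 10.47 and 10.81 in untreated cells. So did SULF2 by its most changed probe (7.91 to 8.39, against 7.47 and 7.73), but not by ILMN_2345142 (7.18 to 7.28, against 7.16 and 7.23). LAMB1 read 8.5, 8.03 and 8.22 in DasR, PazR and SunR, against 6.56 and 6.65 in untreated cells, by its most changed probe (ILMN_2214790, adjusted p = 0.000433). A brighter ITGA6 probe read 9.38, 9.63 and 10.26, against 8.25 and 8.22, and missed the threshold (adjusted p = 0.0586). Besides MMP1 and CDH19, those that fell were LOX (-1.54) and PLOD2 (-1.52), which cross-link and modify collagen, HMCN1 (-0.90) and the hyaluronidase CEMIP2 (-1.12). LOX read 9.52, 9.06 and 8.89 in the sublines, 10.63 to 11.1 in treated parental cells and 10.66 and 10.74 in untreated cells. CEMIP2 was near its subline level also in treated parental cells, at 7.46 to 7.68, against 8.31 and 8.41 in untreated cells and a mean of 7.25 in the sublines.

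Secreted proteins that rose, such as TIMP2 (1.76) and MATN2 (1.48), were sorted with the matrix genes, of which 6 rose and 6 fell. The next group thus depends on the sorting and does not stand for all secreted proteins. All 8 called genes sorted to secreted factors and their release fell. Next to SCRG1 they were the gut and brain peptides GRP (-0.73), NTS (-0.57) and VIP (-0.75), the chemokine CXCL1 (-1.36), the BMP and WNT antagonist SOSTDC1 (-1.34), the WNT carrier WLS (-1.07, by 1 of 5 probes) and DMKN (-1.37 and -1.32). GRP, NTS and VIP were dim in untreated cells, at 6.81 to 7.25, and lay at 6.16 to 6.51 in the sublines, by their called probes. WLS stood between the groups in treated parental cells, at 8.07 to 8.16, against 8.48 and 8.82 in untreated cells and 7.35 to 7.73 in the sublines. CCKBR, the receptor for gastrin and cholecystokinin, fell by 0.90, with 6.58 as its mean in the sublines, against 7.47 and 7.49. CXCL1 read 6.88, 7.54 and 7 in DasR, PazR and SunR, against 8.34 and 8.65, and fell by 1.36 (SE 0.21, adjusted p = 0.0148).

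Genes of nerve cells moved in both directions. SNAP25, of the machinery that fuses synaptic vesicles, read 6.52, 6.68 and 6.91 in the sublines, against 8.79 and 8.21, and fell by 1.8 (SE 0.26, adjusted p = 0.0106). The vesicle protein SV2A fell by 1.37 (adjusted p = 0.011) and the hypothalamic homeobox gene OTP by 1.62 (adjusted p = 0.0127). MAP1B (0.78), SNAP91 (0.69), RTN1 (0.80), SHTN1 (1.25) and the prohormone-processing enzyme CPE (0.87) rose. All 5 of these were at 6.31 to 6.91 in untreated cells.

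Of 9 genes for receptors and other surface proteins, 6 rose and 3 fell, PDGFRA, CCKBR and BST1. PRLR, the prolactin receptor, rose by 1.22 (adjusted p = 0.011), the interleukin 4 receptor chain IL4R by 1.14 (adjusted p = 0.0106), the thrombin receptor F2R by 1.28 (adjusted p = 0.0419), the receptor phosphatase PTPRK by 0.95 (adjusted p = 0.00539), the adhesion ligand CD58 by 1.9 (adjusted p = 0.00354) and HLA-DPA1 by 0.91 (adjusted p = 0.0241). The rise of F2R rests on a dim probe, since its brighter probe read 14.19 to 14.44 in the sublines, against 14.24 and 14.29 (ILMN_2221507, adjusted p = 0.908). CD58 read 9.3, 8.19 and 8.54 in DasR, PazR and SunR, against 6.81 and 6.73 in untreated cells. Among 14 genes of intracellular signaling, 11 rose and 3 fell. LYN, a kinase of the SRC family that dasatinib blocks, read 7.64, 7.8 and 7.92 in the sublines, 6.73 to 6.99 in treated parental cells and 6.54 and 6.69 in untreated cells, and rose by 1.17 (SE 0.13, adjusted p = 0.00146). The adenylate cyclase ADCY1 rose by 0.98 (adjusted p = 0.00866) and the RAL exchange factor RGL1 by 0.89 (adjusted p = 0.0116). RHOJ, RHOBTB3 (-1.97) and RGS17 fell.

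In amino acid metabolism HPD and CTH were joined by CDO1 (1.33), which oxidizes cysteine, and PRODH (1.1), which oxidizes proline, while the amino acid transporters SLC7A8 (-0.67) and SLC16A10 (-0.76) fell. SLC16A10 was low also in parental cells in TKI, at 6.54 to 6.84, against 7.35 and 7.23 in untreated cells and a mean of 6.52 in the sublines. PRODH stood between the groups in treated parental cells, at 7.09 to 7.53, with a mean of 7.82 in the sublines and 6.69 and 6.76 in untreated cells. All 6 called genes sorted to lipid, steroid and glycan metabolism rose, among them SCD5 (1.04), a stearoyl-CoA desaturase, SGMS2 (0.92), a sphingomyelin synthase, and B4GALT6 (1.66), which makes lactosylceramide. This also depends on the sorting, since the hyaluronidase CEMIP2 (-1.12) fell and was placed with the matrix genes. Of 10 genes for transcription or the handling of nucleic acids, SOX4, MSX1 and NCOA7 (2.38) rose and 7 fell, among them RADX (-2.32), a DNA-binding protein of replication forks, ATOH8 (-0.88) and the RNA-binding protein LIN28B (-0.68), a blocker of let-7 maturation. NCOA7 stood between the groups in treated parental cells, at 8.44 to 9.44, against 8.05 and 8.03 in untreated cells and 9.51 to 11.15 in the sublines.

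Gene lists were read by the brightest probe of each gene, and a list is described by its counts beside all 20039 genes, of which 56 (0.279%) were called higher and 40 (0.2%) lower, and of which 2384 (11.9%) lay above and 2598 (13%) below both untreated arrays in every subline. The amino acid and integrated stress response, which ATF4 drives, had 17 of 34 measured genes above both untreated arrays and none below, with a median change of 0.49. Only CTH of these was called. ATF4 itself read 13.49, 13.52 and 13.93 in DasR, PazR and SunR, 13.17, 12.99 and 13.78 in treated parental cells and 13.17 and 12.98 in untreated cells. ASNS, the asparagine synthetase, read 10.51, 11.02 and 12.65 in the sublines, against 10.15 and 10.05 in untreated cells (1.29, SE 0.78, adjusted p = 0.762). It was highest in SunR, and parental cells in sunitinib were also high at 12.21, with 9.65 in dasatinib and 8.94 in pazopanib. The list's median was 0.27 in DasR, 0.26 in PazR and 0.88 in SunR, and 0.17 over the treated parental arrays.

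Targets of p53 had 13 of 24 genes above both untreated arrays and none below, with a median of 0.38 and no call. CDKN1A, the p21 inhibitor of the cell cycle, read 11.36, 11.87 and 13.06 in DasR, PazR and SunR, against 10.78 and 10.64, a difference of 1.39 (SE 0.38, adjusted p = 0.309). TNFRSF10B, a death receptor, read 11.14, 11.37 and 11.59, against 10.42 and 10.41 (0.95, SE 0.24, adjusted p = 0.236). Targets of NRF2, the regulator of the oxidative stress response, had 11 of 24 genes above and none below, with a median of 0.34 and no call. PGD, of the pentose phosphate pathway, read 10.86, 11.68 and 12.09, against 9.8 and 9.75, and came closest to the threshold (1.77, SE 0.33, adjusted p = 0.0525).

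Replication genes lay on the low side. In the S phase list 16 of 37 genes were below both untreated arrays in every subline and none above, with a median of -0.46 and no call. RFC3, a clamp loader subunit, read 8.89, 9.01 and 9.02 in the sublines, against 9.86 and 10.21 (-1.06, SE 0.26, adjusted p = 0.19). The median of this list was -0.06 in DasR, -0.51 in PazR and -0.75 in SunR, and it was -0.85 in treated parental cells. Genes of G2 and mitosis had a median of -0.15, with 3 of 40 genes above and 3 below. Polycomb and DNA methylation genes had 8 of 21 below and 1 above, with a median of -0.15, and imprinted genes 7 of 20 below and 1 above, with a median of -0.23 that was -0.11 against untreated replicate 1 and -0.36 against replicate 2. PEG10 was the only call in these 4 lists.

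Cholesterol biosynthesis split the sublines. Its median change was 0.53, with 0.27 in DasR, -0.10 in PazR and 1.06 in SunR, and 3 of 20 genes lay above both untreated arrays in all sublines. The median was 0.15 in treated parental cells. CYP51A1 read 9.2, 9.08 and 9.67 in DasR, PazR and SunR, against 8.9 and 8.74 in untreated cells. In parental cells in dasatinib, pazopanib and sunitinib it read 8.6, 8.58 and 9.71, so its sunitinib-treated parental array stood at the SunR level. In the list of neural markers 4 of 29 genes were called lower (SCRG1, CDH19, MAP2 and SNAP25) and none higher, with a median of -0.01. Matrix remodeling had 1 call higher (TIMP2) and 3 lower (MMP1, LOX and PLOD2) among 35 genes, with a median of 0. Of 22 PDGF and FGF receptors and ligands, PDGFRA was the only call, and of 34 other receptor tyrosine kinases and 23 genes of ERK pathway output none was called. The lists of RAS, RAF and MAPK components, of drug efflux transporters and of SWI/SNF subunits had no call either. ABCA3, a lipid transporter counted among the efflux transporters, read 8.84, 8.61 and 8.84 in the sublines, against 7.55 and 7.57 (1.2, SE 0.27, adjusted p = 0.138). Of 24 TGF-beta and BMP target genes, 4 lay above and 3 below both untreated arrays in every subline, with a median of 0.04 and no call. ID2 and ID3 were among those below. ID3 read 10.71, 9.92 and 11.53, against 12.68 and 12.51 (-1.88, SE 0.35, adjusted p = 0.0519).

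**Figure D4:**
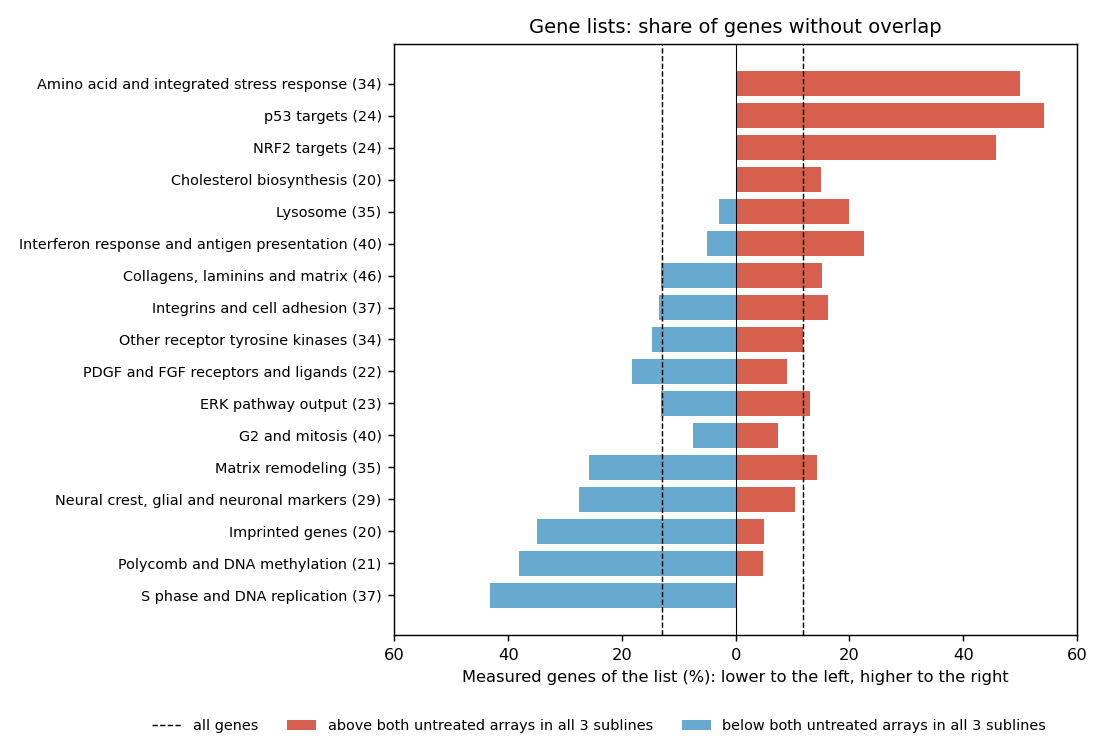
Share of the measured genes of each list (count in parentheses) that lay above (right) or below (left) both untreated arrays in all 3 sublines, with dashed lines for all genes (11.9% above, 13% below). The stress response, p53 and NRF2 lists reach furthest to the right and the S phase list furthest to the left of the lists drawn.

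The 3 sublines also had changes of their own, which rest on 1 array each and have no test. SunR stood furthest from untreated cells, with 579 probes (1.2%) over 1 above and 174 (0.362%) over 1 below both untreated arrays, against 199 (0.414%) and 221 (0.459%) in DasR and 198 (0.412%) and 70 (0.146%) in PazR. In named probes where the other sublines stayed within 0.5 of the untreated range, SunR alone had 183 higher and 47 lower by over 1, DasR 44 and 46 and PazR 17 and 4. Most probes called higher were strongest in SunR (45 of 76), and probes called lower were most often lowest in DasR (28 of 57). The median spread of the sublines over the called probes was 0.42.

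In DasR alone, FGFBP2 and CTHRC1, secreted proteins that were among the brightest genes elsewhere, were far lower, though still above the background. FGFBP2 read 8.52 in DasR, 14.05 in PazR and 13.63 in SunR, against 13.82 and 13.68 in untreated cells. CTHRC1 read 7.64 in DasR, 12.63 in PazR and 12.39 in SunR, against 12.71 and 11.88. The glutamate receptor subunit GRIA2 (7.72 in DasR, 10.9 to 11.39 in the others) and BAALC (6.84, and 9.49 to 9.59 in the others) were low in the same way, while AGR2, a disulfide isomerase of secretory epithelium, was high at 10.45, against 6.64 and 6.61 in untreated cells. PazR alone was high in the ferritin receptor SCARA5 (9.01, against 6.77 in both untreated arrays), DMRT3 (8.83, against 6.96 and 6.85), the glucose transporter SLC2A1 (10.37, against 8.55 and 8.65) and SSPN (9.63, against 8.09 and 7.63), and low in NPTX2 (7.02, against 9.15 and 9.53). SunR alone was high in TMSB4X, an actin-sequestering thymosin, which read 14.27 in SunR, against 8.48 and 8.55 in untreated cells and 8.63 and 8.89 in DasR and PazR. The chemokine CCL20 (11.02), the WNT antagonist SFRP1 (10.93), SEL1L3 (10.96) and MUCL1 (10.93) were at 6.5 to 6.79 in untreated cells and at 7.05 or below in the other sublines.

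A cluster of rises was noticed on the short arm of chromosome 4 after the values had been seen. MSX1, PPP2R2C, S100P and AFAP1 lie there in this order within a run of 24 measured genes by the RefSeq annotation. AFAP1, an adaptor of actin filaments, read 10.28, 9.86 and 10.32 in DasR, PazR and SunR, 8.55 to 8.85 in treated parental cells and 8.56 and 8.6 in untreated cells, and rose by 1.58 (SE 0.24, adjusted p = 0.0131). A second AFAP1 probe was at the background on all arrays. None of the 20 genes between them was called, and their changes ran from -0.17 to 0.38. Of these 20, 9 had an untreated mean over 8 and were thus well measured. WFS1, next to PPP2R2C, read 10.54, 10.45 and 10.73, against 10.41 and 10.12, and MRFAP1, between PPP2R2C and S100P, read 11.98, 11.67 and 11.85, against 12.01 and 11.88. Of the 9 well-measured genes, STK32B, WFS1 and TBC1D14 lay slightly above both untreated arrays in every subline, as 11.9% of all genes did. Their differences were 0.24, 0.31 and 0.38, and the others of the 9 overlapped the untreated arrays. The dimmer genes say little about the run. Whether 4 calls in such a run are unusual was not tested. Without untreated replicate 2 the calls of MSX1, S100P and AFAP1 were lost (adjusted p = 0.688, 0.449 and 0.208), and that of PPP2R2C was kept. Among called genes that fell, RADX and RNF128 are neighbors on the X chromosome with no measured gene between them, and VIP and RGS17 lie on chromosome 6 with 2 between them. RADX read 6.54, 7.95 and 6.67, against 9.32 and 9.43, so that PazR kept more signal than DasR and SunR.

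**Figure D5:**
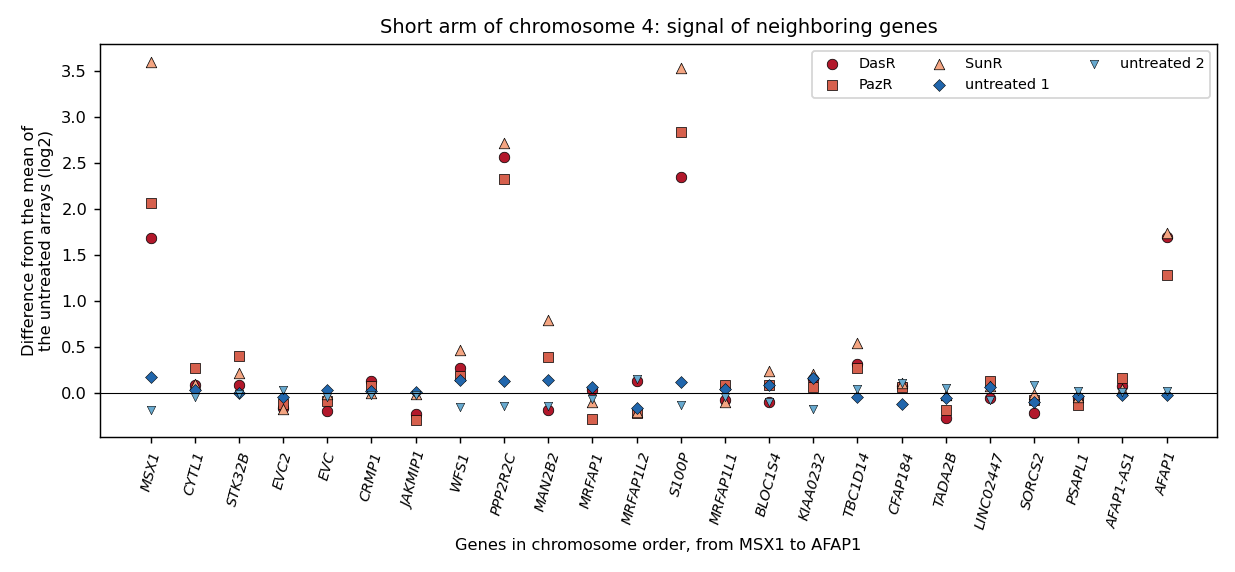
Difference of each array from the mean of the untreated arrays (log2) for 24 neighboring genes in chromosome order on the short arm of chromosome 4, by the called probe or else the brightest probe. MSX1, PPP2R2C, S100P and AFAP1 stand at least 1.26 above both untreated arrays in every subline, and the mean changes of the 20 genes between them lie between -0.17 and 0.38, with MAN2B2 highest in SunR (11.75, against 11.09 and 10.81 in untreated cells).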

How the data were processed

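RNA of A204 cells was labeled with biotin and hybridized to Illumina HumanHT-12 arrays, 8 in all. The authors used beadarray for preprocessing, log2 transformation and quantile normalization, per the study's methods, and deposited log2 intensities for 48107 probes. Detection p-values, background treatment and array batches are not given in the sources used here, and no filter on dim probes was applied. Arrays were grouped by their labels. Symbols came from the platform annotation, updated through RefSeq. Resistant sublines were compared with untreated cells in 1 limma fit of all 8 arrays in 3 groups (limma 3.58.1 in R 4.3.3, lmFit, eBayes with trend). All 48107 p-values were adjusted together by Benjamini-Hochberg, and the threshold was 0.05. The code of the fit was run on simulated data with independent noise in each value, which cannot test effects shared by a whole array. A probe was called when it passed and its groups did not overlap. The study ranked genes by Signal2Noise, which was run as an alternative. Named genes were 6 receptors and SMARCB1, the 12 widest gaps among called genes in each direction, up to 4 called genes (or 2 uncalled) of a list and 5 for each subline alone. All others were chosen after their values were seen. The members, the 50 gene lists and the tests were chosen with earlier results of these data known.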

Additional observations from a re-analysis of the deposited data

How the results depend on the processing

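The alternatives were set with earlier results of these data known. The direction of all 133 called probes was kept under every alternative that held them. The rule of no overlap fixes the direction for fits of the same values, so this is no test of it. The number of calls moved with the test, the array set, the intensity trend and both untreated arrays. Without the trend 28 probes were called higher and 30 lower, and with array set as a term 12 higher and 19 lower. A fit of only the 5 arrays, with or without a second quantile normalization of them, called 25 higher, and its lower calls stayed within 1.5 times the main count. A threshold of 0.01 left 29 higher and 28 lower. The methods' t-test passed 1278 probes higher and 1417 lower at an unadjusted p under 0.05, and 0 higher and 0 lower after Benjamini-Hochberg adjustment. With 1 array left out, limma called 12 to 201 probes higher and 23 to 287 lower. Both of the lowest counts came without untreated replicate 2, the highest count of rises came without DasR, and the highest count of falls came without untreated replicate 1. The cause was not tested. Among the 50 probes highest by Signal2Noise 9 were called, and among the 50 lowest 16. No paired analysis was possible because the labels number only the untreated arrays as replicates. With the drug as a random block 136 probes were called.

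Probes above both untreated arrays in all sublines numbered 2900 among the brighter 50% and 2384 with 1 probe per gene, and those below 3368 and 2598, out of fewer probes. With 1 array left out they numbered 8023 to 14279 above and 8597 to 14773 below, where fewer arrays must separate. A distance over 1 held for 24 probes on the low side with 1 probe per gene, and for 46 to 190 above and 45 to 332 below with 1 array left out. For single sublines a limit of 0.58 in place of 1 gave 568 above and 495 below in DasR, 621 and 250 in PazR and 1382 and 835 in SunR, and a limit of 2 gave 31 and 58, 29 and 16, and 130 and 14. The 25 named probes tested were drawn mainly for their wide gaps, and all kept their direction, which the rule of no overlap largely fixes. Their call was lost in 85 recomputed values and kept in 487. Some settings could hardly end a call, such as a looser threshold of 0.1 or a second quantile normalization of all 8 arrays. The 2 counts are therefore no measure of stability. Signals near the background limit the size of changes, and 1 array for each subline leaves differences between drugs without an error.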

Other observations

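Genes with less known roles held some of the large rises. RANBP3L, of the family of RAN-binding proteins, read 8.85, 10.55 and 9.66 in DasR, PazR and SunR, against 7.37 and 7.08 in untreated cells, and rose by 2.46 (adjusted p = 0.0111). GSDME, a gasdermin that forms membrane pores when caspases cut it, read 9.66, 9.85 and 9.57 in the sublines, 8.16 to 8.48 in treated parental cells and 8.51 and 8.1 in untreated cells, and rose by 1.39 (adjusted p = 0.0219). HSPA12A, a distant relative of HSP70, rose by 1.74 (adjusted p = 0.000577) and SHTN1, which lies near it on chromosome 10 with 1 measured gene between them, by 1.25 (adjusted p = 0.0233). RFTN1 and PLCL2 on chromosome 3 were another near pair that rose, by 0.86 and 0.83 (adjusted p = 0.0296 and 0.0165). CA14, a membrane-bound carbonic anhydrase, read 7.03, 6.57 and 6.42 in the sublines, against 8.13 and 8.23, and fell by 1.5 (adjusted p = 0.0468).

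SMARCA2, an ATPase of the SWI/SNF complex, read 9.77, 11.13 and 11.22 in DasR, PazR and SunR, against 9.54 and 9.14 in untreated cells, and was not called (1.37, SE 0.38, adjusted p = 0.35). In the list of interferon response and antigen presentation, 9 of 40 genes lay above both untreated arrays in every subline and 2 below, none of them called by the brightest probe. IFI6 read 12.65, 12.46 and 12.29 in the sublines, against 11.68 and 11.66, with 10.52 to 12 in treated parental cells (adjusted p = 0.664). In the lysosome list 7 of 35 genes lay above and 1 below, with a median of 0.10.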
